A study of Mus musculus with 6 samples.

Results

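Lipid droplets are stores of neutral lipid that are wrapped in coat proteins and emptied by lipases, and 10 genes of that machinery were followed here in mouse livers in which Selenoo was knocked out in hepatocytes. Selenoo codes for SelO, a selenoprotein of mitochondria. The 10 genes were picked by symbol: the perilipins Plin2, Plin3, Plin4 and Plin5, the CIDE genes Cidea, Cideb and Cidec, and the lipase gene Pnpla2 with its inhibitor G0s2 and its activator Abhd5. Each matched 1 of the 16140 rows of the gene table, and 9 of the 10 had enough counts to be tested. The knockout livers came from 3 samples of genotype Selofl/fl Alb-Cre, and the control livers from 3 samples of genotype Selofl/fl without Cre. Both groups therefore carried the floxed alleles, and all mice ate a normal diet. Alb-Cre is driven by the albumin promoter and acts in hepatocytes, so the other cells of the liver still have the gene. Cre itself and the lost gene differ between the groups together, so their effects cannot be told apart. The labels give no age. They do not state that every library is from a separate mouse, so the tests measure the spread between these samples.

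In hepatocytes, fatty acids are esterified into triacylglycerol in the endoplasmic reticulum and stored in droplets, whose surface is covered by perilipins. CIDE proteins pass lipid between droplets that touch, which enlarges them. ATGL, the product of Pnpla2, removes the first fatty acid from triacylglycerol, and the perilipins limit its access to the droplet. ABHD5, also called CGI-58, activates ATGL, and G0S2 blocks it. Several of these genes, Plin2 and Cidec among them, are known targets of the fatty acid receptors of the PPAR family, and droplet coats grow when hepatocytes take up more fatty acid during fasting.

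On GRCm38, the coordinates in the deposited table place Plin2 on chromosome 4 (86626910 to 86670217, minus strand), Cidec on chromosome 6 (113424634 to 113435760, minus strand) and G0s2 on chromosome 1 (193272160 to 193273188, minus strand). Pnpla2 lies on chromosome 7 (141454319 to 141460743, plus strand), Abhd5 on chromosome 9 (122351616 to 122381524, plus strand) and Cideb on chromosome 14 (55754052 to 55758424, minus strand). The other perilipin genes share a short stretch of chromosome 17, all on the minus strand. Plin4 (56100587 to 56109948) is followed by Plin5 (56111597 to 56117606), with 1798 bases between their GENCODE models, and Plin3 lies farther on (56278962 to 56290511). Cideb has an antisense partner: 76.3% of its exonic bases in GENCODE also lie in exons of Nop9, a nucleolar gene on the opposite strand. The strand setting of the counting is not given in the sources used here, so reads over that stretch cannot be assigned to either gene with certainty. Nop9 had 224 to 283 counts in knockout and 191 to 247 in control livers, against 5016 to 6399 for Cideb over all 6 libraries. Exons of an antisense RNA cover 15.9% of the exonic bases of Abhd5.

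The promoter windows of Plin2, Cidec and G0s2 are shown because these were the 3 members with the largest positive fold changes. Each runs from 250 bases before the start site to 50 after it, 5′ to 3′ on the strand of the gene, from RefSeq on GRCm38.p6. Capitals mark matches to the motifs listed after them, also where the match is on the other strand (TGACCT in Plin2, CGTCA in G0s2), and the Cidec window has none. The windows are chr4:86670010-86670309 for Plin2, chr6:113435711-113436010 for the farther upstream of 2 Cidec starts and chr1:193273139-193273438 for G0s2, all on the minus strand.
Plin2: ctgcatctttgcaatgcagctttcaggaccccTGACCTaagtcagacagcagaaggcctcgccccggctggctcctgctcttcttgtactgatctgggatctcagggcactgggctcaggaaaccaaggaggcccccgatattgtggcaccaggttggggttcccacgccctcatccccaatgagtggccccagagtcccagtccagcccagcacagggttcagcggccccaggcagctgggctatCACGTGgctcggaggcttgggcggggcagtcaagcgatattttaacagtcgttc
Cidec: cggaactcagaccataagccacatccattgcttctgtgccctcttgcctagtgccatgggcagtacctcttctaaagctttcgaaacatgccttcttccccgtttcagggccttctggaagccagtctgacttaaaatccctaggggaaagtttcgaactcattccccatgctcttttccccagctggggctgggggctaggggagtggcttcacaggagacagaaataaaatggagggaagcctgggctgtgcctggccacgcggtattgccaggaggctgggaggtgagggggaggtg
G0s2: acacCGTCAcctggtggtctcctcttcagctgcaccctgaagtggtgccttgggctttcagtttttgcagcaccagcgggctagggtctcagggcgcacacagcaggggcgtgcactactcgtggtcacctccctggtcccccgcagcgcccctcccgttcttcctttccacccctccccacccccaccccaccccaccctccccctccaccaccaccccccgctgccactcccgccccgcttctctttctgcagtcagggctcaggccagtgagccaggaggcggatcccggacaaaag
In all, 6 motifs were searched on both strands in the windows of the 9 members that have one, and in all 32851 windows of the table. The element that PPAR and RXR bind, AGGTCA repeated in direct order after 1 free base, was in none of the members' windows and in 0.0396% of all windows. Its repeated unit AGGTCA was in those of Plin2, Plin5 and Abhd5 and in 16.3% of all windows. CACGTG, the E-box, was in that of Plin2 alone, starting 4 bases before the start site and running across it, and in 7.15% of all windows. TGACG, the core of the cyclic AMP response element, was in those of G0s2 and Abhd5 and in 20.8% of all windows. The full element TGACGTCA, which contains that core, was in none of the members' windows and in 1.79% of all, and the FOXO motif GTAAACA in none and in 3.65%. A match is a description of the letters in these windows.

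The libraries held 15550287 to 18680196 estimated counts. Selenoo had 117, 163 and 135 counts in the knockouts and 1413, 1630 and 1852 in the controls. Its log2 fold change of -3.56 ± 0.17 (SE) passed edgeR's quasi-likelihood test (adjusted p = 4.64e-05). Summed hepatocyte markers ran from 161386 to 189575 CPM (counts scaled to library size) in knockout and from 143402 to 183610 CPM in control livers. Of these markers, 2 of 9 tested, Tat and Serpina1a, were higher past the threshold, where 0.772% of all tested genes were. The libraries differed in how abundance changed with the length of the transcript. Across 11944 genes, Spearman's rho between a library's deviation and length was 0.265, 0.085 and 0.0879 in the knockouts, and -0.295, -0.219 and 0.271 in control replicates 1, 2 and 3. Genes are not independent in these correlations.

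Plin2, a droplet coat gene, and Cidec, a droplet fusion gene, had higher levels in each knockout library than in any control library, with fitted folds of 1.55 and 1.48. The intervals of the other 7 genes included no change. None of the 9 tested members passed edgeR's test of knockout against control at an adjusted p of 0.05, where 1.49% of all 12173 tested genes did (0.772% higher and 0.715% lower). At an unadjusted p under 0.05 the count was 2 of 9, Plin2 and Cidec, both higher, or 22.2% against 18.5% of all tested genes (9.27% higher and 9.26% lower). In 3 of the 9, Plin2, Cidec and Cideb, the scaled levels of the groups did not overlap, which is 33.3% against 25.2% of all tested genes (13.3% higher and 11.9% lower). These shares lie near those of the transcriptome. DESeq2 called 1 member, Plin2, where it called 5.26% of the 12057 genes to which it gave an adjusted p (3.08% higher and 2.18% lower), and limma on counts, FPKM or TPM called none. In the authors' deposited table Plin2 also has the only q value under 0.05 among the 10, 0.0305, where 3.47% of 16125 genes pass (2.03% higher and 1.44% lower). The log2 fold changes of the 9 had a median of 0.13, with 6 positive and 3 negative, beside -0.02 over all tested genes, of which 47.8% were positive.

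**Figure D1:**
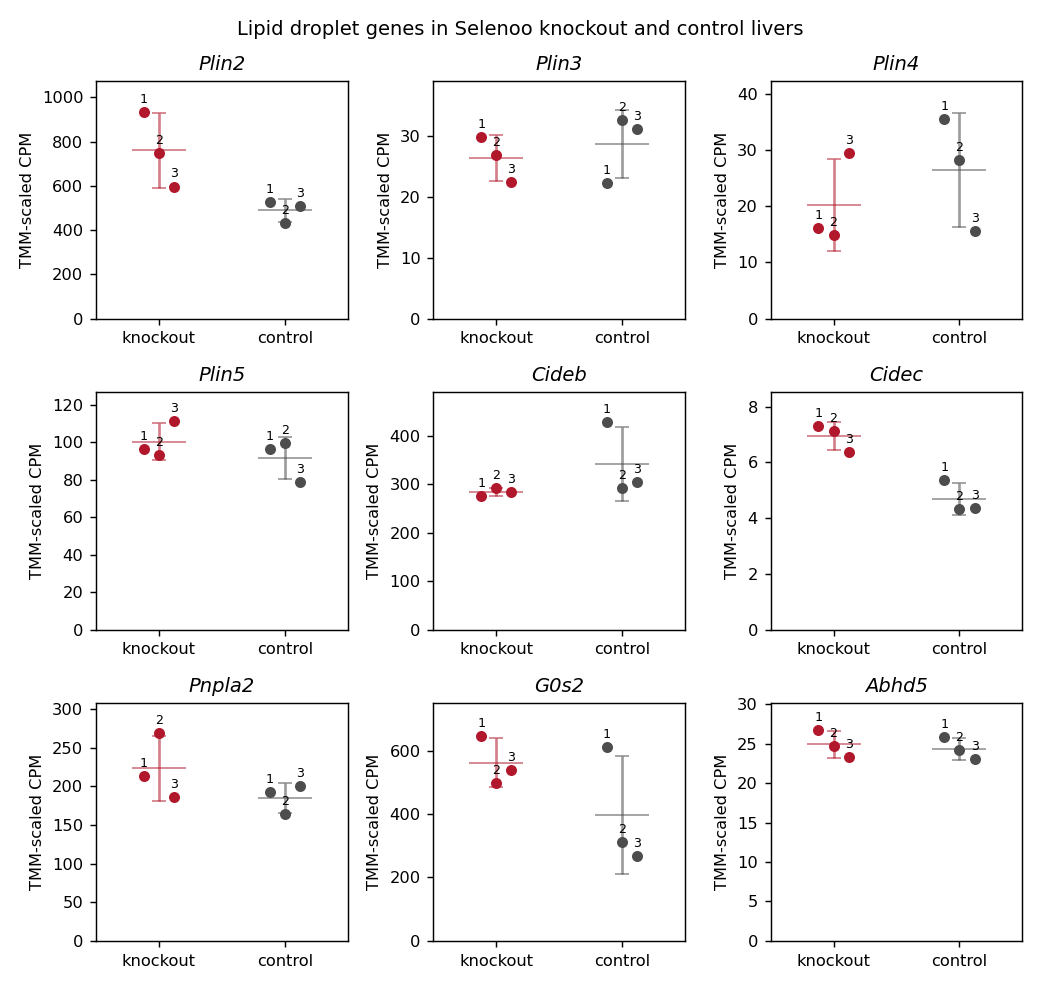
Level of each of the 9 tested genes in TMM-scaled CPM (vertical axes, each from 0) in 3 knockout libraries (red, left) and 3 control libraries (grey, right). Numbers are replicate numbers, horizontal lines the mean and error bars the SD (n = 3 each). The groups of Plin2, Cidec and Cideb do not overlap, those of Cideb by under 1 CPM, and control replicate 1 stands high for G0s2 and Cideb.

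Among the coat genes, Plin2, the main perilipin of hepatocyte droplets, was the most abundant. It had 17374, 13122 and 10507 counts in knockout livers, against 7866, 8354 and 9810 in control livers. Scaled to library size with TMM factors, these are 934, 750 and 597 CPM in the knockouts and 528, 432 and 509 CPM in the controls. Every knockout library lay above every control library, and the knockouts were the more spread out, with replicate 1 the highest. Plin2 averaged 760.2 ± 168 CPM in knockout and 489 ± 50.9 CPM in control livers (SD, n = 3 each). Fitted in edgeR, this is a log2 fold change of 0.64 ± 0.19 (SE), with a 95% interval from 0.22 to 1.05 and an adjusted p of 0.118. On the linear scale it is 1.55-fold, from 1.16-fold to 2.07-fold. With DESeq2 the log2 fold change was 0.64 and the adjusted p was 0.0229. The DESeq2 call was lost without knockout replicate 1 (log2 fold change of 0.47, adjusted p of 0.256). It was also lost without knockout replicate 2 (0.65, adjusted p of 0.178) or control replicate 2 (0.56, adjusted p of 0.2). The DESeq2 call held without knockout replicate 3 (adjusted p of 0.00356), control replicate 1 (0.0128) or control replicate 3 (0.0241). Over all genes, DESeq2 called 305, 226 and 312 genes in the fits that lost the call. It called 310, 712 and 1195 in those that kept it, against 634 with all libraries. In a bulk sample, more cells that express a gene and more of its RNA per cell cannot be told apart.

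Plin5 ties droplets to mitochondria in tissues that burn fat, and it was the next perilipin by level. It had 1792, 1631 and 1963 counts in knockout and 1440, 1931 and 1516 in control livers, or 100.3 ± 9.82 CPM in knockout and 91.7 ± 11.4 CPM in control livers (SD, n = 3 each). The groups overlapped, and the log2 fold change of 0.13 ± 0.14 (SE) had a 95% interval from -0.20 to 0.46 (edgeR, adjusted p = 0.654). The value was 0.05 without knockout replicate 3 and 0.03 without control replicate 3. Plin3, a perilipin that moves between the cytosol and young droplets, had 555, 470 and 393 counts in knockout and 331, 629 and 600 in control livers. Its log2 fold change was -0.12 ± 0.18, with an interval from -0.52 to 0.27 and an adjusted p of 0.740 in the same test, and it ran from -0.27 without control replicate 1 to -0.01 without knockout replicate 3. The lowest library for Plin3 was control replicate 1 at 22.2 CPM, next to knockout replicate 3 at 22.3 CPM.

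Plin4, best known from fat and muscle, varied more within the groups than between them. It had 300, 260 and 520 counts in knockout and 529, 547 and 301 in control livers. Knockout replicate 3 sat with control replicates 1 and 2, and control replicate 3 with knockout replicates 1 and 2. The highest knockout library held 1.99 times the CPM of the lowest, and the highest control library 2.27 times, where the median over all tested genes was 1.22 among knockouts and 1.39 among controls. The log2 fold change was -0.39 ± 0.33 (SE), with a 95% interval from -1.12 to 0.35 (edgeR, adjusted p = 0.544). Leaving out knockout replicate 3 gave -0.77 and leaving out control replicate 3 gave -0.66, whereas leaving out knockout replicates 1 or 2 gave -0.25 or -0.21 and leaving out control replicate 1 gave -0.12.

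Per unit of transcript length (TPM), Plin2 made up most of the perilipin RNA in every library. Its share of the summed TPM of the 4 genes was 88.7%, 86.5% and 81.9% in knockout livers, against 80.8%, 77.1% and 82.9% in control livers. The groups overlapped, since control replicate 3 had a larger share than knockout replicate 3. Plin5 held 8.52%, 10.4% and 14.4% of the TPM in the knockouts and 15%, 16.7% and 12.1% in the controls. The share of Plin3 was 2.51% ± 0.119 in knockout and 3.97% ± 1.07 in control livers (SD, n = 3 each), and here the groups did not overlap. Plin4 stayed between 0.423% and 1.46%. The 4 genes summed to 867, 656 and 549 TPM in the knockouts, against 436, 455 and 519 TPM in the controls, without overlap. Most of this sum is Plin2, which did not pass in edgeR, so its separation largely restates that of Plin2. Plin3 and Plin4 had negative fold changes. Shares of one total move against each other, so a larger share of Plin2 lowers the others.

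**Figure D2:**
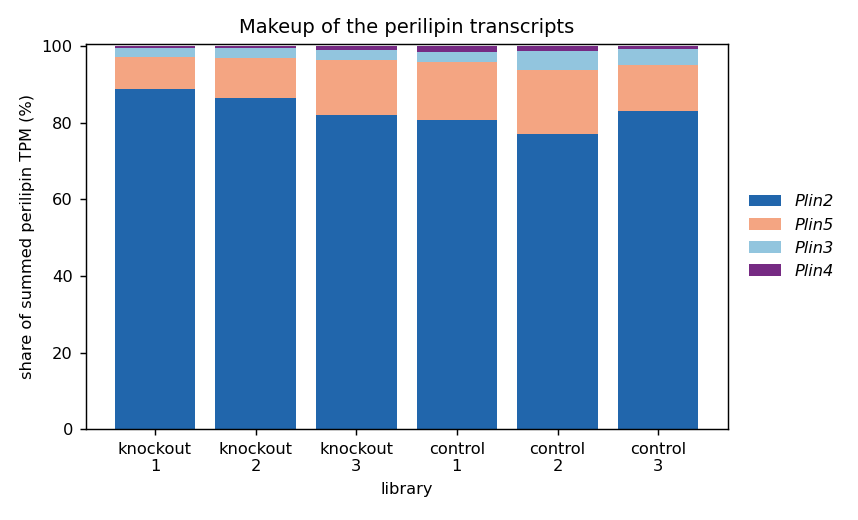
Share of each perilipin in the summed TPM of Plin2, Plin3, Plin4 and Plin5 (vertical axis, percent) in each library, knockouts on the left and controls on the right. Plin2 takes between 77.1% and 88.7% of the perilipin TPM in every library, and Plin5 between 8.52% and 16.7%.

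Of the CIDE genes, Cideb, the hepatocyte form that takes part in loading very low density lipoprotein with lipid, was by far the most abundant. It had 5149, 5111 and 5016 counts in knockout and 6399, 5657 and 5863 in control livers. In CPM these are 277, 292.1 and 285 in the knockouts and 429, 292.3 and 304 in the controls. The knockouts lay close together and below the controls, but knockout replicate 2 and control replicate 2 were separated by less than 1 CPM. In CPM control replicate 1 stood high above the other 5 libraries. It was less apart in TPM, at 483 against 411 and 448 in control replicates 2 and 3 and 372 to 395 in the knockouts. Limma on log2(TPM + 1) gave an adjusted p of 0.522. The log2 fold change was -0.26 ± 0.17 (SE), with a 95% interval from -0.65 to 0.12 (edgeR, adjusted p = 0.428), and it was -0.07 without control replicate 1. Nop9, the antisense partner, had a log2 fold change of 0.16 ± 0.14 with an adjusted p of 0.557.

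Cidec, also called FSP27, drives the fusion of droplets in white fat and in fatty liver and was scarce here. It had 136, 125 and 112 counts in knockout livers, against 80, 84 and 84 in control livers. The lowest knockout library, at 6.36 CPM, lay above the highest control library, at 5.37 CPM. The means were 6.94 ± 0.504 CPM in knockout and 4.69 ± 0.589 CPM in control livers (SD, n = 3 each). The log2 fold change was 0.57 ± 0.16 (SE), with a 95% interval from 0.20 to 0.94 (edgeR, adjusted p = 0.115). With DESeq2 the adjusted p was 0.148. Cidec had the smallest p of the 9 members, and it was positive under all 17 alternatives run, from 0.39 on log2(FPKM + 1), a scale that understates the change of low genes, to 0.67 without control replicate 1. Cidea, the CIDE gene of brown fat, had 1 count in knockout replicate 2 and 0 in each of the other 5 libraries, so no fold is given. With 0 counts a level of 3 counts, here 0.161 to 0.193 CPM per library, cannot be told from none.

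The ratio of Cideb to Cidec restates the levels of these genes, neither of which passed, within each library. Cideb had 64.0, 67.9 and 73.4 times the TPM of Cidec in the knockouts, against 129, 109.8 and 114 times in the controls. The ratio averaged 68.4 ± 4.73 in knockout and 118 ± 10.1 in control livers (SD, n = 3 each). Since the levels of each gene did not overlap between the groups and their fold changes had opposite signs, the separation of the ratio adds no evidence of its own.

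Adipocytes also express Cidec, Plin4 and Cidea, and traces of fat were measured in some livers. Of 15 adipocyte markers 13 were in the table and 6 were tested. Of these 1 passed, Pck1, which hepatocytes express strongly, where 1.49% of all tested genes passed. The 6 tested markers had a median log2 fold change of -0.42. The whole list summed to 6158 to 6961 CPM in knockout and 5660 to 5924 CPM in control livers. Without Pck1, Car3, Thrsp and Lipe, which liver expresses and which were set aside after their values were seen, the sums were 8.23 to 14.8 CPM in knockout and 10.9 to 30.1 CPM in control livers. Adipoq had 7, 0 and 0 counts in the knockouts and 0, 42 and 0 in the controls, and Plin1, the perilipin of fat cells, had 3, 0 and 0 counts in the knockouts and 0, 7 and 0 in the controls. Control replicate 2 was thus the library with the most fat markers. Without it the log2 fold change of Cidec was 0.52 and that of Plin4 -0.34. Muscle markers, 8 of 12 of which had at most 3 counts in every library, summed to 4.74 to 7.16 CPM in knockout and 6.12 to 11.3 CPM in control livers.

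The lipase gene Pnpla2 had 3968, 4709 and 3285 counts in knockout and 2863, 3164 and 3864 in control livers. Scaled, it averaged 223 ± 42.1 CPM in knockout and 185 ± 19.4 CPM in control livers (SD, n = 3 each). The groups overlapped, because knockout replicate 3 lay below control replicates 1 and 3. Its fitted log2 fold change was 0.27 ± 0.17 (SE), with a 95% interval from -0.11 to 0.65 (edgeR, adjusted p = 0.419). That value was 0.11 without knockout replicate 2. Its activator Abhd5 had the smallest log2 fold change of the 9 genes, with 497, 432 and 411 counts in knockout and 385, 468 and 445 in control livers, or 24.9 ± 1.69 CPM in knockout and 24.4 ± 1.39 CPM in control livers (SD, n = 3 each). Its log2 fold change of 0.03 ± 0.12 had an interval from -0.24 to 0.31, that is from 0.846-fold to 1.24-fold (edgeR, adjusted p = 0.903). The sign of so small a value turned with upper-quartile scaling (-0.01) and on FPKM.

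G0s2, the ATGL inhibitor, had the highest TPM of the 10 genes in every library. It had 12045, 8711 and 9500 counts in knockout livers, against 9099, 6008 and 5178 in control livers. In CPM these are 647, 498 and 540 in the knockouts and 611, 310.5 and 269 in the controls. Control replicate 1 lay inside the range of the knockouts, and control replicates 2 and 3 lay below all of them. The knockouts thus spanned a 1.3-fold range and the controls a 2.27-fold one. Between the groups the log2 fold change was 0.50 ± 0.29 (SE), with a 95% interval from -0.14 to 1.15 (edgeR, adjusted p = 0.378). Without control replicate 1 it was 0.96 and passed, with an adjusted p of 0.0184, in a fit that called 2.93% of 12335 genes, 1.41% higher and 1.52% lower. The other 5 single omissions gave log2 fold changes between 0.29 and 0.58, and none of them passed. The longest coding transcript of G0s2 has 871 bases, the shortest of the 10 genes. The rho on transcript length was -0.295, -0.219 and 0.271 in control replicates 1, 2 and 3, and the part of length in the level of G0s2 was not tested. With each library's trend on length and GC content removed, the log2 fold change of G0s2 was 0.72 and the adjusted p in edgeR was 0.127. The same removal took the log2 fold change of Cideb to -0.135.

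The balance of inhibitor, lipase and activator varied from library to library. G0s2 had 12.3, 7.52 and 11.7 times the TPM of Pnpla2 in knockout livers, against 12.8, 7.65 and 5.40 times in control livers. Pnpla2 had 9.78, 13.3 and 9.65 times the TPM of Abhd5 in the knockouts and 8.61, 8.23 and 10.6 times in the controls. Both ratios overlapped between the groups.

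Ranked by mean TPM in knockout livers, the order was G0s2 (1194), Plin2 (596), Cideb (384), Pnpla2 (116), Plin5 (73.8), Plin3 (17.2), Abhd5 (10.7), Cidec (5.64), Plin4 (4.2) and Cidea. In that order the ranges of neighbours overlapped only between Cidec and Plin4. In control livers the means were 790.5 TPM for G0s2, 447 for Cideb, 378 for Plin2, 95.9 for Pnpla2, 68.0 for Plin5, 18.8 for Plin3, 10.5 for Abhd5, 5.39 for Plin4 and 3.80 for Cidec. There Cideb and Plin2 overlapped, as did Plin4 and Cidec. Plin2 stood above Cideb in each knockout library, at 450 to 769 TPM against 372 to 395 TPM, and below it in each control library. This order restates the levels of genes that did not pass in edgeR, and it depends on the unit. In CPM Plin2 stood above Cideb in every library, with 528, 432 and 509 against 429, 292.3 and 304 in the controls.

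**Figure D3:**
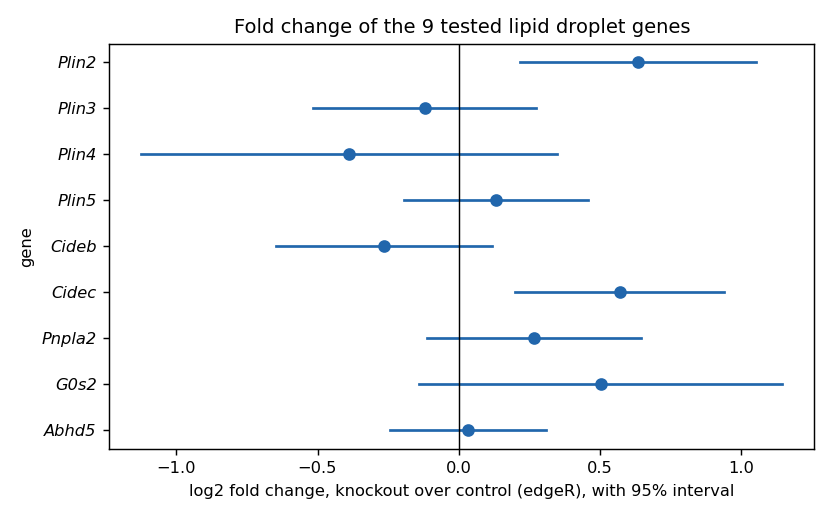
Log2 fold change of knockout over control (horizontal axis) for the 9 tested genes from edgeR's quasi-likelihood fit of 3 against 3 libraries, with 95% intervals as lines. The intervals of Plin2 (0.22 to 1.05) and Cidec (0.20 to 0.94) lie above 0 before adjustment for the number of genes tested, and the other 7 include 0.

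The other lipolysis genes on a list drawn up for this comparison held genes that passed. Of 21 tested, 3 rose and none fell, where 0.772% of all tested genes rose. This list, like the other gene lists, was chosen with earlier results of these data known. Its count is a description and no independent support. The 3 code for lipid hydrolases outside the ATGL system. Ces1d, a carboxylesterase of the endoplasmic reticulum that hydrolyses stored triacylglycerol, had 705, 910.4 and 949 CPM in knockout livers, against 362, 352 and 456 CPM in control livers. Its log2 fold change was 1.13 ± 0.17 (SE; edgeR, adjusted p = 0.0170). It belongs to a family of similar genes among which the counting may divide reads. Abhd6, a monoacylglycerol lipase, averaged 62.7 ± 6.82 CPM in knockout and 34.5 ± 4.31 CPM in control livers (SD, n = 3 each), a log2 fold change of 0.86 ± 0.14 with an adjusted p of 0.0243. Lipa, the acid lipase of lysosomes, averaged 189 ± 12.4 CPM in knockout and 117 ± 13.1 CPM in control livers, a log2 fold change of 0.70 ± 0.14 with an adjusted p of 0.0459. In each of the 3 every knockout library lay above every control library, as in 13.3% of all tested genes. The 3 were picked because they passed on these same libraries, so the separation adds no evidence.

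The list had 15 positive and 6 negative fold changes, with a median log2 fold change of 0.17, which was 0.27 and 0.29 without knockout replicates 2 and 3 and 0.36 without control replicate 3. Hormone-sensitive lipase (Lipe), which follows ATGL in the chain, had a log2 fold change of 0.17 ± 0.16 (edgeR, adjusted p = 0.577). Mgll, which releases the last fatty acid, had a log2 fold change of 0.38 ± 0.17 and an adjusted p of 0.260. Hilpda, another inhibitor of ATGL, had one of -0.12 ± 0.26 with an adjusted p of 0.835. The count of 3 turned on single libraries: it was 1 without knockout replicate 1, 0 without knockout replicates 2 or 3 or control replicate 2, and 6 without control replicate 3. That last fit called 407 genes higher over all genes, against 94 with all libraries. DESeq2 called 6 of the list higher, where it called 3.08% of all genes higher.

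Of 28 tested genes of droplet assembly and other droplet proteins, none passed in edgeR, while 6 were higher and 1 lower at an unadjusted p under 0.05, where 9.27% of all tested genes were higher and 9.26% lower. DESeq2 called 3 of them higher, where it called 3.08% of all genes higher. Their median log2 fold change was 0.20. The smallest p belonged to Hsd17b11, a dehydrogenase that sits on droplets, at 193 ± 21.3 CPM in knockout and 127 ± 2.38 CPM in control livers (SD, n = 3 each) with a log2 fold change of 0.60 ± 0.13 (SE) and an adjusted p of 0.0626. Next was Gpat4, an acyltransferase that moves onto growing droplets, with a log2 fold change of 0.80 ± 0.21 and an adjusted p of 0.0893. The count was 5 without control replicate 3, in a fit that called 407 genes higher over all genes, against 94 with all libraries.

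Plin2 and Cidec were also set beside PPAR-alpha targets outside the droplet, a list chosen with earlier results of these data known as well. Of 25 tested, 3 rose and none fell in edgeR's test, where 0.772% of all tested genes rose and 0.715% fell. The 3 were Pdk4, the kinase that inhibits pyruvate dehydrogenase (log2 fold change of 3.19 ± 0.38, edgeR adjusted p = 0.00822), Ehhadh, a peroxisomal enzyme of fatty acid oxidation (1.52 ± 0.25, adjusted p = 0.0241), and Acot1, a thioesterase with close paralogs (1.36 ± 0.27, adjusted p = 0.0459). Pdk4 had 50.8, 32.5 and 18.1 CPM in knockout livers, against 3.42, 2.74 and 4.93 CPM in control livers. The median log2 fold change of that list was 0.45, with 21 positive and 4 negative values, and 0.24 without control replicate 2. At an unadjusted p under 0.05, 8 were higher and 2 lower, where 9.27% of all tested genes were higher and 9.26% lower. DESeq2 called 6 higher and 1 lower, where it called 3.08% of all genes higher and 2.18% lower. The most negative was Cd36, a fatty acid transporter, with a log2 fold change of -1.28 ± 0.30 (edgeR, adjusted p = 0.0718). The count was 1 without any one of the knockout replicates 1, 2 and 3, and 5 without control replicate 1 or 3. Over all genes, 33, 19 and 32 were called higher without knockout replicates 1, 2 and 3. The number was 174, 34 and 407 without control replicates 1, 2 and 3, against 94 with all libraries. Among 18 tested regulators 1 rose, Ppargc1a, a coactivator of PPAR-alpha (1.18 ± 0.16, adjusted p of 0.0131). It averaged 10.8 ± 0.937 CPM in knockout and 4.73 ± 0.662 CPM in control livers (SD, n = 3 each). That count was 0 without knockout replicates 2 or 3 or control replicate 2, and 3 without control replicate 3. Ppara itself was at a log2 fold change of 0.53 ± 0.20 with an adjusted p of 0.202, and Pparg, the family member of fat cells, at -0.60 ± 0.15 with an adjusted p of 0.0892.

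**Figure D4:**
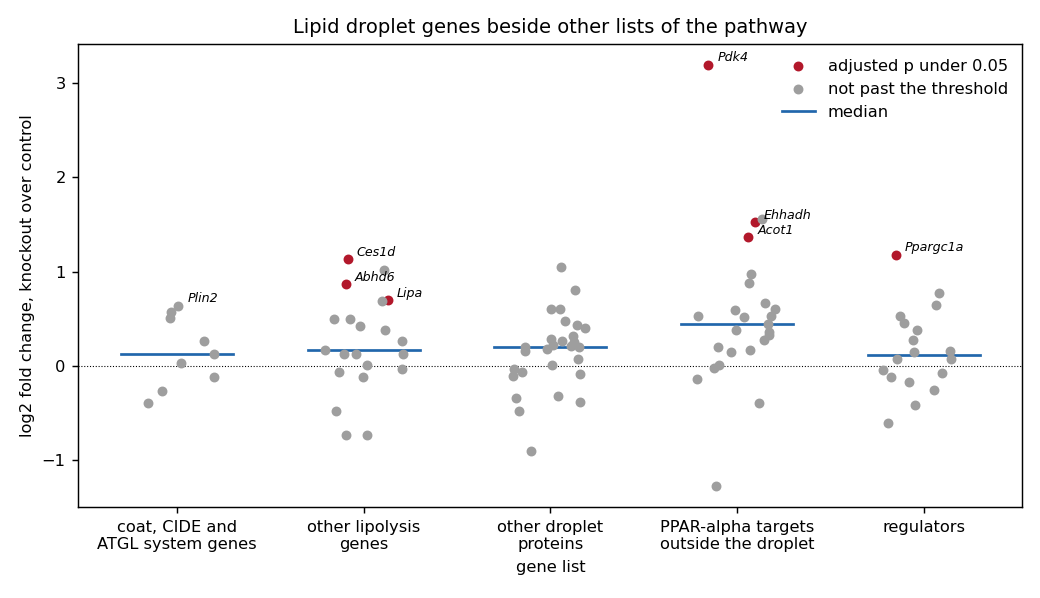
Log2 fold change of knockout over control (vertical axis) for each tested gene of 5 lists (horizontal axis): the 9 tested coat, CIDE and ATGL system genes, other lipolysis genes, other droplet proteins, PPAR-alpha targets and regulators. Red points passed edgeR's test at an adjusted p of 0.05, grey points did not, and blue lines are medians of 0.13, 0.17, 0.20, 0.45 and 0.11; none of the 9 genes in the first column is red.

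Macrophages and stellate cells carry droplets too. All 14 tested macrophage markers had negative log2 fold changes, with a median of -0.26. Over all 12173 tested genes, 6351 were negative and the median was -0.02. None of the 14 passed in edgeR, where 0.715% of all tested genes fell. At an unadjusted p under 0.05, 3 were lower, where 9.26% of all tested genes were. Their sum was 391 to 431 CPM in knockout and 409 to 537 CPM in control livers. Of 12 stellate and endothelial markers 1 fell, the endothelial receptor gene Lyve1 (-1.15 ± 0.18, adjusted p of 0.0196), and the sum was 460 to 547 CPM in knockout and 495 to 551 CPM in control livers. The part of these cells in the levels of the droplet genes was not tested.

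**Figure D5:**
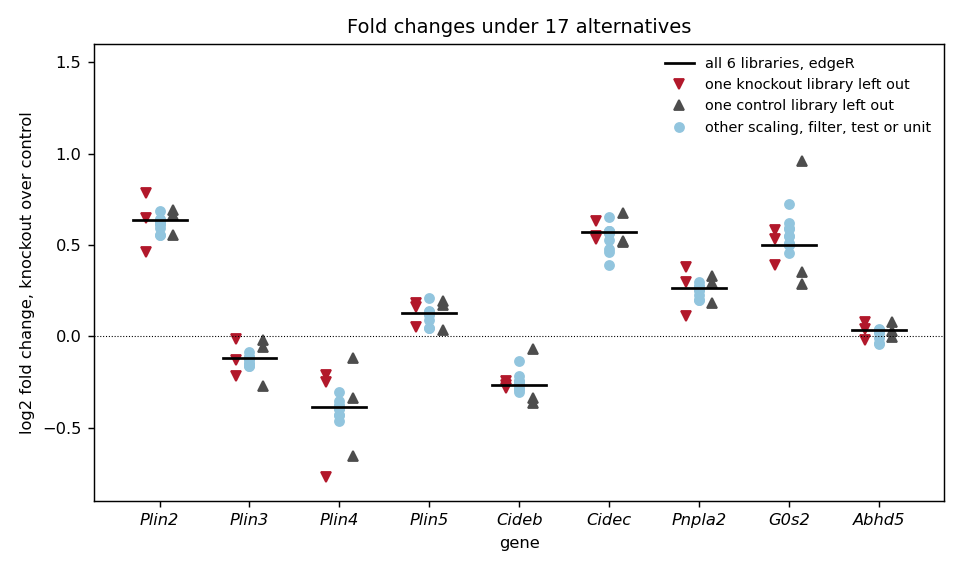
Log2 fold change of knockout over control (vertical axis) of each of the 9 genes with all libraries (black line), with 1 knockout (red) or 1 control (grey) library left out, and under other scalings, filters, tests and units, length and GC removal included (blue). Plin2 runs from 0.46 to 0.78 and Cidec from 0.39 to 0.67, G0s2 reaches 0.96 without control replicate 1, and Plin4 reaches -0.77 without knockout replicate 3.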

How the data were processed

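Bulk poly(A) RNA of 3 knockout and 3 control livers was measured. The submitters' processing notes name HISAT2, Bowtie2 and RSEM 1.3.1, and the build GRCm38, with the order of steps and the strand setting not given in the sources used here. Per the file headers the authors deposited estimated counts, FPKM and TPM per library, their means per group, and a DESeq2 comparison with a log2 fold change, p-value and q-value per gene. Columns were matched to samples by group and number; the columns call the controls wild type.

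Estimated counts (4.70% to 5.12% not whole) were rounded. Totals are given above; at these depths a count of 0 allows 3 counts, and such limits cover counting error only. Libraries of one group differed by more than sampling noise (chi-square over its degrees of freedom was 18.9 or more). Genes were kept by filterByExpr and scaled with TMM factors, and knockout was compared with control by the quasi-likelihood test of edgeR 4.0.16 (R 4.3.3), in a model with genotype alone and with Benjamini-Hochberg adjustment over 12173 genes at 0.05. Standard errors come from the F statistic. The procedure was tested on simulated data. Alternatives used DESeq2 1.42.0, limma 3.58.1, other scalings and filters, a replicate block and single libraries left out. The 10 members and the gene lists were chosen with earlier results of these data known. Besides Selenoo and the 10 members, genes past the threshold on each pathway list were named, or its 2 with the smallest p; so was Nop9, which overlaps Cideb, while Lipe, Mgll, Hilpda, Cd36, Ppara, Pparg and the cell markers fall outside that rule and were named after their values were seen. Length and GC removal (GENCODE, 98.1% of tested genes) and DESeq2 with libraries left out were chosen after seeing the data. Promoters are from RefSeq on GRCm38.p6.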

Additional observations from a re-analysis of the deposited data

How the results depend on the processing

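Selenoo kept its call under all 17 alternatives (-3.71 to -3.29). No member was called lower under any of them. The number called higher was 0 with all libraries and was 0 under every alternative except with DESeq2 (1, Plin2) and without control replicate 1 (1, G0s2), so it ran from 0 to 1 over single libraries left out. DESeq2 on the genes kept by filterByExpr also called 1 (Plin2, adjusted p of 0.0270), in a fit with 636 calls over all genes. With a library left out DESeq2 called 0 to 2 members, the 2 being Plin2 and G0s2 without control replicate 1. Over all genes those fits made 226 to 1195 calls, and 712 without control replicate 1. Of the 9 members Abhd5 alone changed sign: 0.03 became -0.01 with upper-quartile scaling, -0.038 on log2(FPKM + 1) and -0.043 on log2(FPKM + 0.1), and it ran from -0.018 to 0.079 with single libraries left out. Hilpda (-0.12) was at 0.026 with length and GC removed, and from -0.27 to 0.10 with single libraries left out. The causes were not tested.

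The counts on other lists changed more. Other lipolysis genes called higher (3) were 5 with no low-count filter, 6 with DESeq2, 1 on log2(TPM + 1), 5 with length and GC removed, and 0 to 6 with libraries left out. Other droplet proteins called higher (0) were 3 with DESeq2, 1 with length and GC removed and 0 to 5 with libraries left out. PPAR-alpha targets called higher (3) were 6 with DESeq2 and 1 to 5 with libraries left out; called lower (0), they were 1 with no low-count filter, 1 with DESeq2 and 0 to 1 with libraries left out. Regulators called higher (1) were 2 with no low-count filter, 3 with DESeq2, 0 on log2(TPM + 1), 3 with length and GC removed and 0 to 3 with libraries left out. The median log2 fold change of the regulators (0.11) ran from 0.06 without control replicate 1 to 0.23 without control replicate 3, and that of other droplet proteins (0.20) from 0.16 to 0.28. Over all genes 181 calls (94 higher and 87 lower) became 634 with DESeq2, 330 with no low-count filter, 126 (52 higher and 74 lower) on log2(FPKM + 0.1), 110 on log2(FPKM + 1), 79 on log2(TPM + 1), and 43 to 668 with libraries left out.

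Same-numbered knockout and control libraries did not deviate together (r of -0.16, -0.0786 and -0.076 across genes), and no library correlated best with its own number. No pairing by number was thus seen, but with 3 libraries per group this check cannot exclude one. With the replicate number as a block, 87 genes were called over all genes, 0 members, 1 other lipolysis gene (Ces1d) and 1 PPAR-alpha target (Pdk4).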

Other observations

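The neighbours of the 10 genes on their chromosomes were read from the same fit. Of 15 tested protein-coding neighbours that are not members themselves, 0 passed in edgeR's test, where 1.49% of all tested genes did. At so small a share, 0 of 15 says little about these loci. An unadjusted p under 0.05 was found for 1, where 18.5% of all tested genes had one. The log2 fold changes of the 15 lay between -0.56 and 0.54, with a median of 0.06. Plin4 and Plin5, which lie side by side on chromosome 17, differed in how their libraries were ordered. Plin5 had 20.1, 22.4 and 13.4 times the TPM of Plin4 in knockout livers, against 10.3, 12.5 and 17 times in control livers.

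For Cidec, the member with the smallest p, the 5 tested genes with the most similar profile over the 6 libraries were Slc17a5, Atg16l2, Gm33989, Gclc and Cgrrf1. Their centred log2 CPM differed from that of Cidec by a root mean square of 0.045, 0.0503, 0.0627, 0.0654 and 0.0694. Slc17a5 is a lysosomal sialic acid exporter, and Gclc is the catalytic subunit of the enzyme that limits glutathione synthesis. Their log2 fold changes lay between 0.49 (Cgrrf1) and 0.62 (Gm33989), with adjusted p of 0.0774 to 0.106 in edgeR's test. Genes picked for a profile like that of Cidec have similar fold changes by that choice, so these values add no evidence.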
